A study of Mus musculus with 9 samples.

Results

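The C-type lectin receptors described here are Clec4a1, Clec4a2, Clec4a3, Clec4d, Clec4e, Clec4n, Clec5a, Ly75 and Mrc1. They were taken by gene symbol from the table of RNA-seq counts, as 9 of its 51912 genes, and not for any measured value. They do not include Clec9a, the gene of DNGR-1 that was disrupted in the study, which was used here as the check of the genotype labels.

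C-type lectin receptors are surface proteins of myeloid cells that bind carbohydrates, lipids or proteins of microbes and of damaged cells. Several of them carry no signalling motif of their own and pair with the adaptors FcRγ (Fcer1g) or DAP12 (Tyrobp), which recruit the kinase Syk, and Syk signals through the adaptor Card9. Others carry an inhibitory motif that recruits phosphatases, and a further group takes up bound ligand for degradation and antigen presentation. Conventional dendritic cells (cDCs) and their precursors, the pre-cDCs, express different sets of these receptors as they mature, and macrophages and neutrophils express several of the same genes.

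RNA was measured in pre-cDCs sorted from mixed bone marrow (BM) chimeras, which were lethally irradiated BL/6 CD45.1/2 mice given equal parts of BM of WT BL/6 CD45.1 mice and of CD45.2 mice with the DNGR-1 KO alleles (Clec9a Cre/Cre). All groups thus came from chimeric, irradiated hosts 16 weeks after transplantation. BM gave 3 samples of each genotype, and spleen gave 1 WT sample and 2 of DNGR-1 KO cells, each pooled from 2 mice. Mice were 6 to 12 weeks old at the start. The DNGR-1 KO line carries Cre in the Clec9a locus on both alleles and, made in BL/N stem cells, had been backcrossed 10 times to C57BL/6J. The labels of the WT samples give CD45.1 in 1 field and CD45.2 in another. The study used 6 mice in all for these samples, so samples shared mice, and which samples did so is not stated. The tests treat samples as separate, and their p-values measure only the spread between these samples.

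Libraries held 17103806 to 23722298 counts. Clec9a had 905 to 1766 counts in WT BM and 1 count in each DNGR-1 KO BM sample, and 2459 counts in WT spleen against 0 in both DNGR-1 KO spleen samples, as the labels say. All 8 pre-cDC marker genes checked, such as Flt3, were above 3 counts in every sample. The spleen samples also held RNA of genes of other cells. The summed level of 7 T and NK cell genes was 718.4 to 3024.8 CPM (counts normalized to a common library size) in spleen and 14.4 to 43.7 in BM, although CD3 and NK1.1 were in the antibody mix of the study's gating for pre-cDCs, used to exclude cells, and that of 7 cDC1 genes was 520.0 to 1101.7 CPM in spleen and 12.7 to 73.8 CPM in BM. Samples of bulk RNA cannot tell more cells of a type from more RNA per cell. Single genes were also near 0 in 1 spleen sample and not in the others. Among genes that reached 100 counts in both other spleen samples, 6.07% had at most 3 counts in WT spleen. The share was 1.92% in DNGR-1 KO spleen sample 1 and 1.82% in sample 2. In BM, where the 2 other samples were of the same genotype, it was at most 0.09%. The spleen shares, of samples set against another genotype, thus also hold any differences between genotypes.

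The genes lie in 3 places. Clec4a1, Clec4a3, Clec4a2, Clec4n, Clec4d and Clec4e stand within 368 kb of chromosome 6 (chr6:122921848-123289870, GRCm38), in that order, all on the plus strand but Clec4e. This block is 6.12 to 6.47 Mb from Clec9a. Clec5a is on the same chromosome, 88.82 Mb from Clec9a (chr6:40574894-40585821, minus strand). Mrc1 (chr2:14229392-14332057, plus strand) and Ly75 (chr2:60292103-60383303, minus strand) are on chromosome 2. The Mrc1 gene contains Mir511, and Ly75 overlaps the antisense gene Gm13571, with which it shares 2.2% of its 50-base words.

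Promoter sequence is shown for the members that differed between tissues in the tests below and had an entry in the table of RefSeq promoters (GRCm38.p6), which held 8 of the 9 members and not Clec4n. Each sequence is the 250 bases before the gene's start, 5′ to 3′ on the gene's strand. Capitals mark matches on either strand to the letters GAGGAA (the core of PU.1 sites), TGTGGT (RUNX sites) and TTGCNNAA (C/EBP sites). These factors bind near many myeloid genes. Clec4a1 and Clec4a3 were higher in spleen, and Clec4e and Clec5a were lower.
Clec4a1, chr6:122921598-122921847, plus strand: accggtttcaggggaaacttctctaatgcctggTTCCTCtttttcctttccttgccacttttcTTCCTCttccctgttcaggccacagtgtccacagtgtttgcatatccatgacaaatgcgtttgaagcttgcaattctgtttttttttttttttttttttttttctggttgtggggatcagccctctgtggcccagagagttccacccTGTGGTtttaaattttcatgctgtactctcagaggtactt
Clec4a3, chr6:122952265-122952514, plus strand: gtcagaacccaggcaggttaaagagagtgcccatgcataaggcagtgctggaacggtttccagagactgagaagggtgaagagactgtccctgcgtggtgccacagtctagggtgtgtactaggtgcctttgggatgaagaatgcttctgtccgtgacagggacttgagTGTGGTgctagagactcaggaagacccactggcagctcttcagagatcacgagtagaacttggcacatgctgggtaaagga
Clec4e, chr6:123289872-123290121, minus strand: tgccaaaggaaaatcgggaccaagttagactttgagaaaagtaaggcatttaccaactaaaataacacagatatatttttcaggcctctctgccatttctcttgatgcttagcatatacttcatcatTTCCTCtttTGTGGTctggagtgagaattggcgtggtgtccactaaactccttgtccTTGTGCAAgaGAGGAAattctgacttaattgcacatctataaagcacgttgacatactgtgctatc
Clec5a, chr6:40585806-40586055, minus strand: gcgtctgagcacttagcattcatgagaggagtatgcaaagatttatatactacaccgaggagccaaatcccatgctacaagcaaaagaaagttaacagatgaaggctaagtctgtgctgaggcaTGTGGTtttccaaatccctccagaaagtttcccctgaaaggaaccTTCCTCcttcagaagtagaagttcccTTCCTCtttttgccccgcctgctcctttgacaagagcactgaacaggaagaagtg

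TGTGGT was present in all 4 of these windows and in 5 of the 8 members' windows, and 14.0% of 32817 promoter windows of this length held it. GAGGAA was present in 3 of the 4 (Clec4a1, Clec4e and Clec5a, with 2 matches each) and in 5 of the 8, against 23.3% of all windows. The Clec4a3 window printed held no GAGGAA, while a second RefSeq start of that gene had 1 match. TTGCNNAA was present in the Clec4e window, where it lies 66 bases before the start and 2 bases from a GAGGAA, and in that of Ly75, against 9.57% of all windows. No matches overlapped. Letters are a description of the windows and not evidence of binding.

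Spleen and BM pre-cDCs differed in 5 of the 9 receptors. Clec4a1, Clec4a3 and Clec4n were higher in spleen, and Clec4e and Clec5a were lower. The comparison set 3 spleen against 6 BM samples with genotype as a covariate, and 19.5% of all 13468 genes tested passed the threshold (adjusted p under 0.05), with 7.28% of all genes higher and 12.3% lower in spleen. All 9 members passed the filter on low counts, Clec4n through the spleen samples alone and Clec4e and Clec5a through the BM samples alone. Passing in this way favoured a difference for these 3, so the count of 5 is a description. In BM, DNGR-1 KO and WT pre-cDCs differed in none of the 8 members that could be tested, where 0.0307% of 13016 genes passed.

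**Figure D1:**
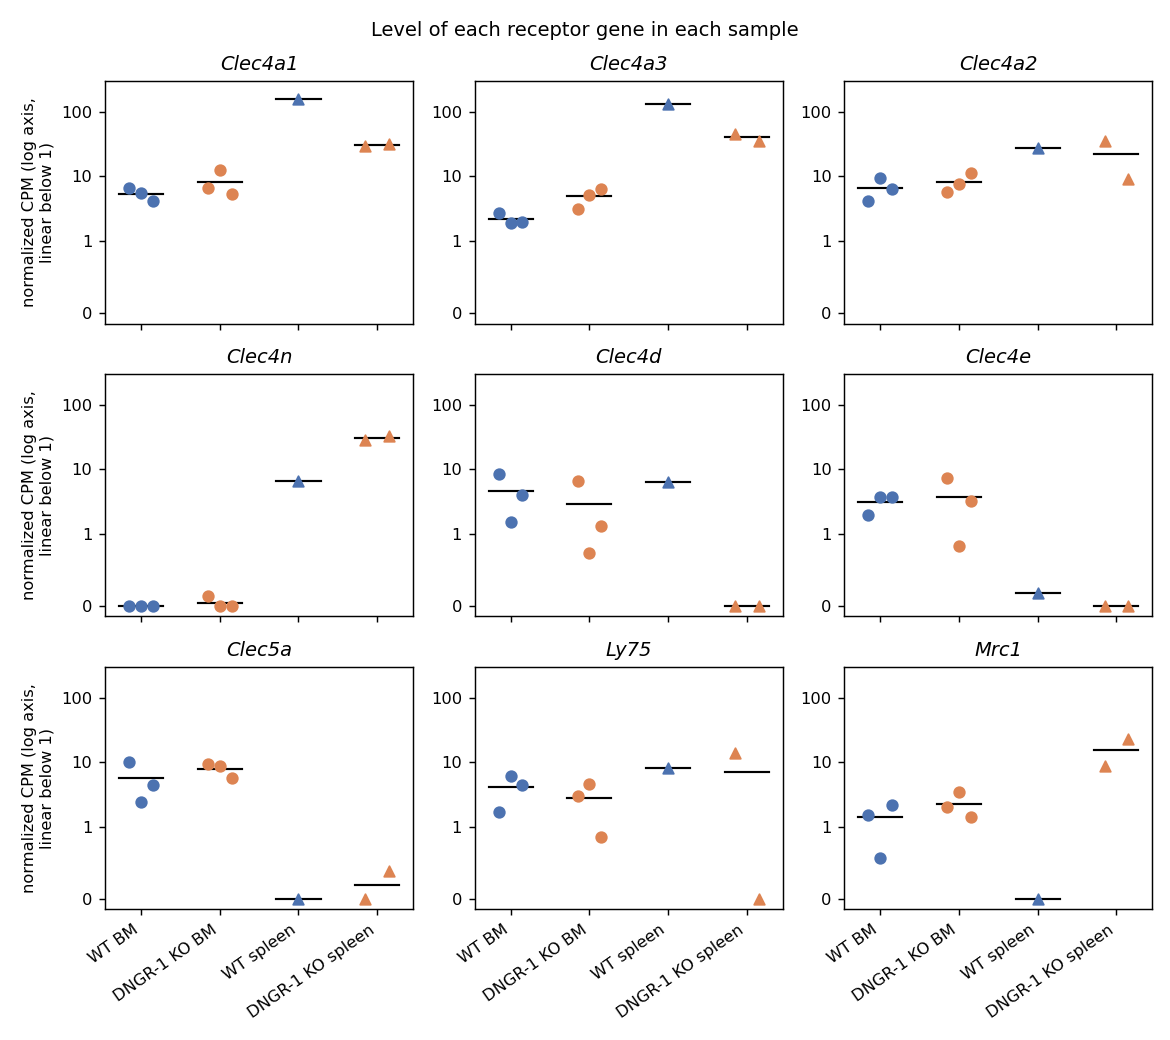
Normalized CPM (vertical axis, log scale above 1 and linear below) of each receptor gene in each sample, by group (WT blue, DNGR-1 KO orange, BM circles, spleen triangles), with the group mean as a line and replicates in number order from left to right. Clec4a1 and Clec4a3 lie above 29 CPM in all 3 spleen samples and below 13 CPM in all 6 BM samples, and Clec4n is at 0.134 CPM or less in BM.

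Clec4a1, Clec4a2 and Clec4a3 belong to the dendritic cell immunoreceptor (DCIR) group. Clec4a2, the mouse DCIR, carries an inhibitory motif that recruits phosphatases, and Clec4a1 and Clec4a3 are its close relatives. Clec4a3 was at 2.69, 1.92 and 1.98 CPM in WT BM samples 1 to 3 and at 3.18, 5.22 and 6.42 CPM in DNGR-1 KO BM samples 1 to 3. In spleen it was at 132.8 CPM in the WT sample and at 44.9 and 35.4 CPM in the DNGR-1 KO samples. Every spleen sample was above every BM sample. Spleen against BM gave a log2 fold change of 4.36 ± 0.58 (SE), a fitted 20.6-fold (adjusted p = 0.00137, edgeR quasi-likelihood test). Without the WT spleen sample the log2 fold change was 3.02 (adjusted p = 0.00458).

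Clec4a1 followed the same pattern between tissues. Its level was 6.52, 5.5 and 4.17 CPM in WT BM, and 6.71, 12.6 and 5.31 CPM in DNGR-1 KO BM. It was 160.7 CPM in WT spleen, and 29.8 and 31.9 CPM in DNGR-1 KO spleen. The groups of BM and spleen samples did not overlap, and the WT spleen sample was far above the other spleen samples. Fitted over all samples, the log2 fold change was 3.31 ± 0.60 (SE), a fitted 9.93-fold (adjusted p = 0.00524). Without the WT spleen sample it was 1.90 (adjusted p = 0.034), and over DNGR-1 KO samples alone it missed the threshold (1.90, adjusted p = 0.0749).

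Clec4a2 did not pass the threshold. It was at 4.13, 9.5 and 6.46 CPM in WT BM and at 5.77, 7.56 and 11.4 CPM in DNGR-1 KO BM. The WT spleen sample had 27.6 CPM, and the DNGR-1 KO spleen samples had 35.3 and 9.03 CPM, the latter within the range of BM. Its log2 fold change was 1.67 ± 0.53 (SE; adjusted p = 0.0526). Without DNGR-1 KO spleen sample 2 it was 2.07 (adjusted p = 0.0109), and it passed in 5 of 19 alternatives. Of the 50-base words of Clec4a2, 4.72% also occur in Clec4a4, a neighbouring DCIR gene. Clec4a4 had 0 to 5 counts in BM, 11 counts in WT spleen, and 497 and 157 in those of DNGR-1 KO spleen. Reads shared by these genes could have been divided between them, and counts of either are less certain for that reason.

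Clec4n, Clec4d and Clec4e signal through FcRγ. Clec4n encodes dectin-2, a receptor for fungal mannans. It had 0 counts in all 3 WT BM samples and in 2 DNGR-1 KO BM samples, and 3 counts in DNGR-1 KO BM sample 1. It had 111 counts (6.61 CPM) in WT spleen, and 512 and 786 counts (28.8 and 33.3 CPM) in DNGR-1 KO spleen. All spleen samples were thus above all BM samples. The pooled rate in spleen was 956.6 times that in BM, with an exact 95% interval of 326.6 to 4644 from the 3 BM counts (counting error only). The fitted log2 fold change, which depends on the prior count at such levels, was 9.38 ± 1.02 (SE; adjusted p = 0.000476). Without DNGR-1 KO BM sample 1, the BM sample with counts, the fitted value was 11.27 (adjusted p = 0.00883). The T and NK cell genes named above were also in these spleen samples. So were monocyte and macrophage genes, which are given below with Mrc1. The part of either in this result was not tested.

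Clec4e encodes Mincle, which binds mycobacterial glycolipid and a protein released by dead cells. Its level was 1.97, 3.69 and 3.76 CPM in WT BM, and 7.24, 0.829 and 3.21 CPM in DNGR-1 KO BM. In spleen it had 3 counts (0.179 CPM) in the WT sample and 0 counts in both DNGR-1 KO samples. Spleen samples were below every BM sample. The pooled rate in BM was 68.9 times that in spleen, with an exact 95% interval of 23.4 to 335.5 (counting error only). The fitted log2 fold change of spleen against BM was -5.97 ± 1.49 (SE; adjusted p = 0.0214). Without the WT spleen sample, the spleen sample with counts, it was -9.24 (adjusted p = 0.0121). The call was lost in a fit with replicate blocks (-5.70, adjusted p = 0.0972), as it was over DNGR-1 KO samples alone (-9.30, adjusted p = 0.0535).

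Clec4d encodes MCL, which forms a complex with Mincle. It differed between samples of each tissue more than between tissues. WT BM samples had 8.43, 1.51 and 4.02 CPM, and DNGR-1 KO BM samples had 6.53, 0.731 and 1.35 CPM. WT spleen had 6.31 CPM (106 counts), and both DNGR-1 KO spleen samples had 0 counts. Between tissues the log2 fold change was -2.32 ± 1.98 (SE; adjusted p = 0.475). Without the WT spleen sample it was -8.85 (adjusted p = 0.0245), while over DNGR-1 KO samples alone, which also leaves out WT BM, it was -8.91 (adjusted p = 0.0651).

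Clec5a encodes MDL-1, a receptor of monocytes and neutrophils that pairs with DAP12. It was at 10.1, 2.44 and 4.52 CPM in WT BM and at 9.44, 8.68 and 5.76 CPM in DNGR-1 KO BM. In spleen it had 0 counts in the WT sample, 0 counts in DNGR-1 KO sample 1 and 9 counts (0.382 CPM) in sample 2. No spleen sample reached the lowest BM sample. Its log2 fold change was -5.99 ± 1.43 (SE; adjusted p = 0.0179). Without DNGR-1 KO spleen sample 2, the spleen sample with counts, it was -10.03 (adjusted p = 0.00301). The call was lost in a fit with replicate blocks (-6.16, adjusted p = 0.0795), as it was over DNGR-1 KO samples alone (-5.31, adjusted p = 0.0901).

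Neutrophil and granulocyte genes were likewise lower in spleen, beside Clec4e and Clec5a. Ly6G, a neutrophil surface marker, was in the same antibody mix as CD3 and NK1.1. The summed level of 10 such genes was 862.2 to 2767 CPM in BM and 0.0562 to 1.06 CPM in spleen. In spleen 4 of the 10, among them Elane, the gene of neutrophil elastase, were at 0 in all samples. Of the 8 genes tested, 7 were lower in spleen and 0 were higher, beside 12.3% and 7.28% of all genes tested. These 7 passed the filter on low counts through the BM samples alone, which favoured a difference, so the count is a description. The highest sums were in WT BM sample 1 and DNGR-1 KO BM sample 1, which were also the highest for Clec4d and Clec5a but not, in WT, for Clec4e. Without these 2 samples Clec4e still passed, while Clec5a did not (log2 fold change -5.92, adjusted p = 0.0753). The other 4 BM samples still held 862.2 to 1450.7 CPM of these genes. Most of this was Mpo, at 694.5 to 1284.1 CPM in these 4 samples, while S100a9 was at 11.5 to 43.4 CPM. The part of neutrophil RNA in the BM levels was not tested.

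**Figure D2:**
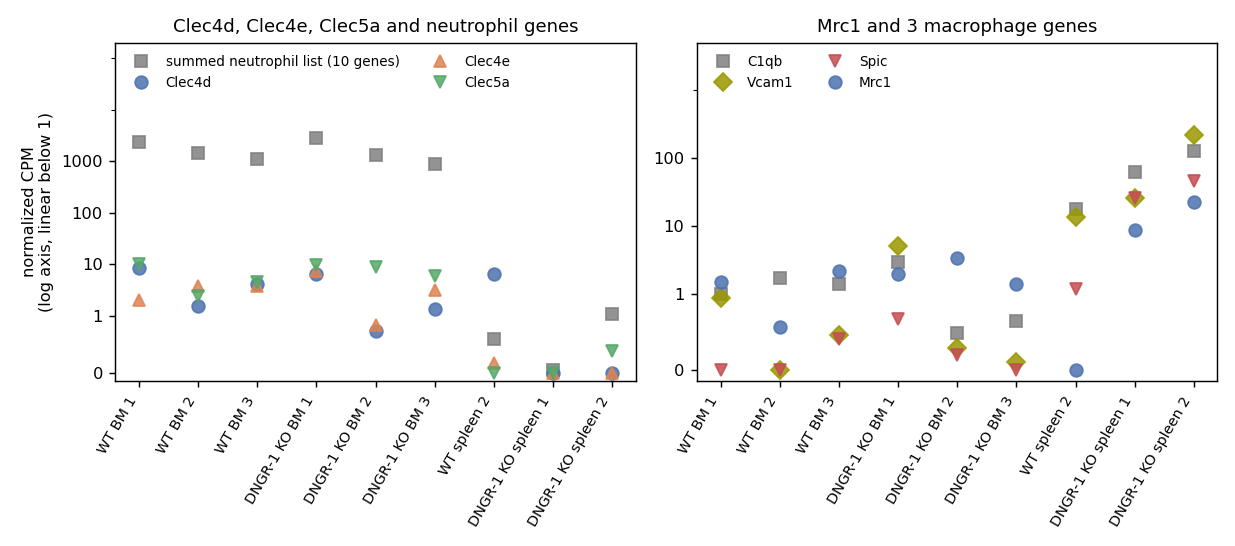
Normalized CPM (log scale above 1, linear below) in each of the 9 samples of Clec4d, Clec4e and Clec5a with the sum of 10 neutrophil and granulocyte genes (left), and of Mrc1 with 3 macrophage genes (right). The neutrophil sum, most of it Mpo in BM, is at 862.2 CPM or more in every BM sample and at 1.06 CPM or less in spleen. Mrc1 and the 3 macrophage genes shown are highest in DNGR-1 KO spleen sample 2. Of the 14 genes of that list, 5 not shown, such as Adgre1, had a higher CPM in WT spleen than in either DNGR-1 KO spleen sample.

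Ly75 and Mrc1 are endocytic receptors with many lectin domains. Ly75 encodes DEC-205, which delivers bound material to late endosomes and marks cDC1s in spleen. It was at 1.67, 6.23 and 4.42 CPM in WT BM and at 3.04, 4.53 and 0.852 CPM in DNGR-1 KO BM. WT spleen had 8.28 CPM, DNGR-1 KO spleen sample 1 had 14.1 CPM (251 counts), and sample 2 had 0 counts. Spleen values thus lay on both sides of the BM range. For Ly75 the log2 fold change was 1.21 ± 1.29 (SE; adjusted p = 0.582), and it was -0.52 without DNGR-1 KO spleen sample 1. The count of 0 is 1 of the low counts described above for that sample, and depth alone would allow up to 0.127 CPM there. The 7 cDC1 genes summed to 1101.7 CPM in DNGR-1 KO spleen sample 1, the highest of all samples. They summed to 627.6 CPM in DNGR-1 KO spleen sample 2, where Ly75 had 0 counts, and to 520.0 CPM in WT spleen.

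Mrc1 encodes the mannose receptor, an abundant protein of tissue macrophages. WT BM samples had 1.5, 0.571 and 2.19 CPM, and DNGR-1 KO BM samples had 2.01, 3.46 and 1.4 CPM. WT spleen had 0 counts, and DNGR-1 KO spleen had 156 and 534 counts (8.76 and 22.6 CPM). The spleen samples lay below and above the BM range. Between tissues the log2 fold change was 1.62 ± 1.62 (SE; adjusted p = 0.553). Without the WT spleen sample it was 2.77 (adjusted p = 0.044), and over DNGR-1 KO samples alone, with the same value, it missed the threshold (adjusted p = 0.0744). Some macrophage genes had the order of Mrc1 over the spleen samples and others did not. C1qb had 308 counts in WT spleen and 1139 and 3068 in DNGR-1 KO spleen, Spic had 20, 457 and 1109, Vcam1 had 229, 460 and 5102, and Mertk had 0, 0 and 214. Of the 14 monocyte and macrophage genes, 5 had a lower CPM in WT spleen than in either DNGR-1 KO spleen sample, 5 had a higher one, among them Lyz2, Adgre1 and Cd68, and 4 did neither. The whole list of 14 monocyte and macrophage genes summed to 5582.8 CPM in WT spleen and to 3435.4 and 4283 CPM in DNGR-1 KO spleen, and 5 of its 13 tested genes were higher in spleen than in BM (Adgre1, C1qa, C1qb, Vcam1 and Spic) and 0 lower. Spic, Mertk, Lyz2 and Cd68 were named after their values were seen. The part of these genes' cells in the Mrc1 values was not tested.

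**Figure D3:**
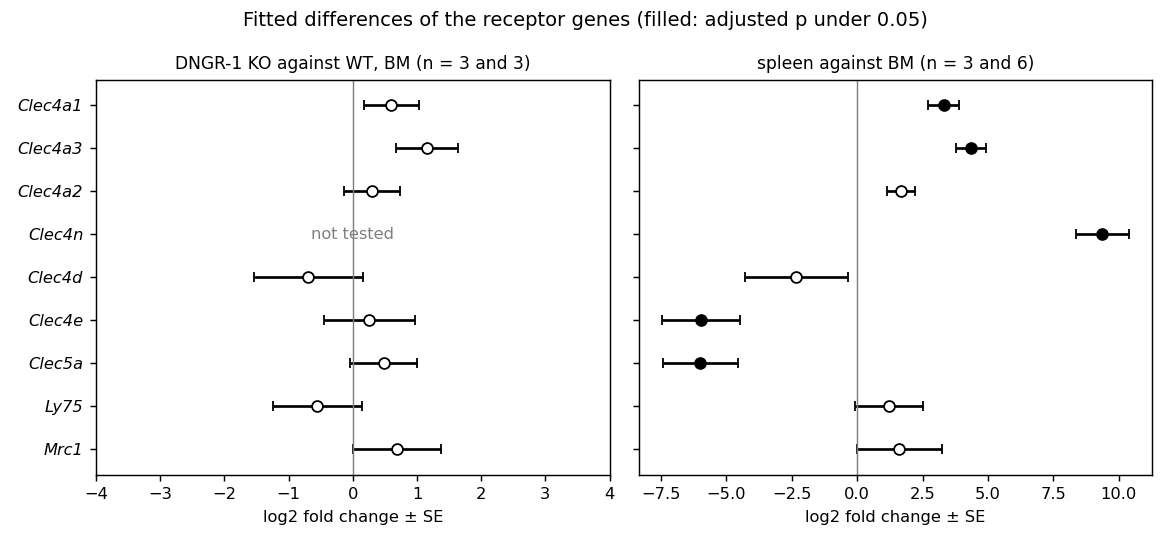
Log2 fold changes with their SE (horizontal axis) of the receptor genes for DNGR-1 KO against WT in BM (left, 3 against 3 samples) and for spleen against BM (right, 3 against 6 samples), with filled points for adjusted p under 0.05. No point on the left is filled, and 5 on the right are, from -5.99 for Clec5a to 9.38 for Clec4n.

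Whether the loss of DNGR-1 changed these receptors was examined in BM with 3 samples of each genotype. DNGR-1 KO cells came from CD45.2 mice and WT cells from CD45.1 mice. The study warns that these lines carry further genetic differences. Genotype and CD45 background thus cannot be told apart in BM or in spleen. None of the 8 tested members passed the threshold by edgeR, DESeq2, limma-voom or limma on the deposited values, and 1 of them, Clec4a3, had an unadjusted p under 0.05. Clec4n, with 3 counts in BM, did not pass the filter on low counts, and the test on the deposited values, which had no such filter and included it, did not call it. The median log2 fold change of the 8 members was 0.39, beside -0.004 for all genes tested, and 6 of the 8 values were above 0.

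Clec4a3 had the largest difference, with a mean of 2.2 ± 0.428 CPM (SD, n = 3) in WT BM and 4.94 ± 1.64 CPM (SD, n = 3) in DNGR-1 KO BM. Every DNGR-1 KO sample was above every WT sample, which was so for this 1 member of 8 and for 4.79% of all genes tested. The log2 fold change was 1.16 ± 0.48 (SE; adjusted p = 0.861). In the other 7 members the genotypes overlapped. The log2 fold change was 0.60 ± 0.43 for Clec4a1, 0.30 ± 0.43 for Clec4a2, 0.48 ± 0.52 for Clec5a and 0.69 ± 0.69 for Mrc1. It was 0.26 ± 0.71 for Clec4e, -0.55 ± 0.69 for Ly75 and -0.69 ± 0.85 for Clec4d (all SE, adjusted p of 0.861 to 0.952). A value that missed the threshold does not show that the genotypes were alike.

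The Clec4 block lies on the chromosome of the disrupted gene, so that the genotype and any sequence linked to it cannot be told apart for its members. Clec7a, the gene of dectin-1 beside Clec9a, had a mean of 37.0 ± 7.13 CPM (SD) in the WT BM samples and 240.0 ± 91.3 CPM (SD) in those of DNGR-1 KO, and passed the threshold (log2 fold change 2.69 ± 0.34, SE, adjusted p = 0.0437). None of the 5 Clec4 members tested, at over 6 Mb, did. Of all 13016 genes tested in BM 0.0307% passed, so this count says nothing about distance.

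In spleen 1 WT sample stood beside 2 DNGR-1 KO samples, so there is no test and no replicate check for WT. Clec4a1, Clec4a3 and Clec4d were lower in both DNGR-1 KO samples, and Clec4n and Mrc1 were higher in both. These 3 members were more than 2-fold lower in both, as were 7.73% of the genes tested between tissues, and the 2 were more than 2-fold higher, as were 14.6%. Clec4a1 in WT spleen was 5.4 times (95% interval 4.92 to 5.94) the level of DNGR-1 KO sample 1 and 5.03 times (4.64 to 5.46) that of sample 2. For Clec4a3 the ratios were 2.96 (2.73 to 3.21) and 3.76 (3.47 to 4.07). The intervals are exact and cover counting error only. The spleen samples also differed in genes of cell types. The 7 cDC2 genes summed to 1664.1 CPM in WT spleen and to 782.2 and 779.2 CPM in DNGR-1 KO samples 1 and 2. The 7 cDC1 genes went the other way, with 520.0 CPM in WT and 1101.7 and 627.6 CPM in DNGR-1 KO. The part of such differences in the spleen ratios was not tested.

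Clec4d, with 106 counts in WT spleen and 0 in both DNGR-1 KO samples, was at least 37.5-fold and at least 49.6-fold lower there, against a floor of 3 counts per library. Clec4n was 4.35 times (3.54 to 5.39) and 5.04 times (4.13 to 6.21) the WT level in the DNGR-1 KO samples. Mrc1 was at least 49.0-fold and at least 126.7-fold higher than in WT spleen, where it had 0 counts and was among the 6.07% of genes described above. For Clec4a2 and Ly75 the DNGR-1 KO samples lay on both sides of the WT sample, with 1.28 and 0.328 times its level for Clec4a2, and 1.7 times and at least 65.1-fold lower for Ly75. Clec4e and Clec5a had 3 and 0 counts in WT spleen and at most 9 in DNGR-1 KO spleen.

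Between genes, levels were compared as CPM per kb of exon. In BM the order by the mean over 6 samples ran from Clec4a1 (4.37 ± 1.92, SD) through Clec4a3 (2.69 ± 1.39), Clec4a2 (2.55 ± 0.903), Clec4d (2.35 ± 1.97) and Clec5a (1.78 ± 0.796) to Clec4e (0.695 ± 0.438), Ly75 (0.501 ± 0.289), Mrc1 (0.291 ± 0.152) and Clec4n (0.0157 ± 0.0386). Every neighbour in this order overlapped the next over the samples. With the longest transcript as the length, Clec4a3 had rank 4 in place of rank 2.

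In spleen the order by the mean over 3 samples ran from Clec4a3 (53.5 ± 40.5 CPM per kb, SD) and Clec4a1 (47.6 ± 48.1) to Clec4n (16.1 ± 10.1) and Clec4a2 (8.19 ± 4.62). Mrc1 (1.64 ± 1.79), Clec4d (1.32 ± 2.28) and Ly75 (1.08 ± 1.03) followed, and Clec5a (0.0331 ± 0.0574) and Clec4e (0.012 ± 0.0208) were last. Neighbours again overlapped in each case. Clec4n was thus the last of the 9 in BM and had rank 3 in spleen. Beside these, Clec9a in WT samples was at 16.4 to 27.3 CPM per kb in BM and 44.5 in spleen.

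**Figure D4:**
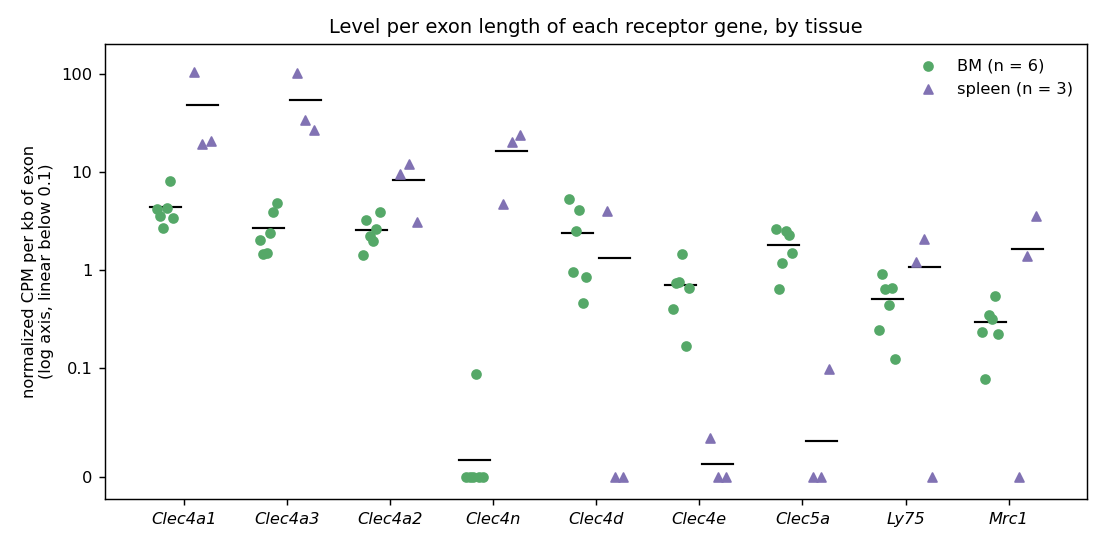
Normalized CPM per kb of exon (vertical axis, log scale above 0.1 and linear below) of each receptor gene in the 6 BM samples (circles) and 3 spleen samples (triangles), with means as lines. Clec4a1 and Clec4a3 lead in spleen at 19.1 to 103.1 CPM per kb, and Clec4n is last in BM.

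The adaptors of these receptors were far more abundant than the receptors, and neither they nor Syk and Card9 passed the threshold in either comparison. Fcer1g was at 696.3 to 1087.7 CPM per kb in BM and 640.9 to 1056.5 in spleen, and Tyrobp at 1027.2 to 2078.4 and 773.8 to 1535. Syk was at 4.43 to 11.7 and 3.99 to 8.81 CPM per kb, and Card9 at 7.58 to 11.6 and 5.88 to 18.0. Log2 fold changes of spleen against BM were -0.10 ± 0.22 (SE) for Fcer1g, -0.22 ± 0.30 for Tyrobp, -0.25 ± 0.34 for Syk and 0.51 ± 0.39 for Card9. In BM the log2 fold changes of DNGR-1 KO against WT were 0.14 ± 0.23, 0.35 ± 0.28, 0.36 ± 0.30 and 0.20 ± 0.26 in the same order.

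Of 26 genes of C-type lectin signalling, 25 were tested. Between tissues 3 were higher in spleen and 0 lower. These were Lcp2 (log2 fold change 2.47 ± 0.25, SE), an adaptor of Syk and its relatives, Hcst (3.15 ± 0.37), the adaptor DAP10, and Relb (2.44 ± 0.38), an NF-κB subunit. The spleen samples also held RNA of T and NK cell genes, as described above, and its part in these 3 values was not tested. The median log2 fold change of the list was 0.13, beside -0.18 for all genes. In BM 0 of the 25 passed between genotypes, while all 25 log2 fold changes were above 0. Their median was 0.41, beside -0.004 for all genes tested. Other lists also leaned above 0 in BM, such as 9 of 10 monocyte and macrophage genes and 6 of 6 cDC1 genes, while 4 of 8 neutrophil genes did. All these values come from the same 6 libraries. None of the 6 genes of inhibitory phosphatases and their adaptors, such as Ptpn6 (SHP-1), passed in either comparison, with medians of 0.22 between tissues and 0.15 between genotypes.

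Of 14 myeloid transcription factors, 10 were tested. Irf4 (log2 fold change 2.74 ± 0.48, SE) and Nr4a1 (4.08 ± 0.64) were higher in spleen, and Irf8 (-1.35 ± 0.33), which drives the cDC1 lineage, was lower. In BM 0 of the 10 passed between genotypes. Cebpe, a factor of granulocyte maturation, had 0 counts in all 3 spleen samples and was named after its values were seen.

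A further 27 C-type lectin receptors of dendritic and myeloid cells were counted for comparison. Of the 18 tested between tissues, 5 were higher in spleen (Clec4a4, Clec1b, Clec2i, Cd69 and Cd209d) and 3 were lower (Cd93, Olr1 and Mgl2), and these 8 names were chosen after their values were seen. Their median log2 fold change was 1.06, beside 1.62 for the 9 members and -0.18 for all genes. In BM 1 of 16 passed between genotypes, Clec7a. Lists of other cell types gave, between tissues, 5 of 5 T and NK cell genes higher, 4 of 7 cDC1 genes higher, 1 of 7 cDC2 genes higher and 1 lower, 1 of 6 pDC genes lower, and 0 of 8 pre-cDC genes and 0 of 1 B cell gene in either direction. In BM no gene of these lists passed between genotypes. Over all genes tested between tissues, 7.28% were higher and 12.3% lower in spleen. Genes near 0 in 1 tissue, such as Cd3d, Clec4a4, Olr1 and Mgl2, passed the filter on low counts through the other tissue alone. The counts of all lists between tissues are thus descriptions.

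The members did not move as a single group over the 9 samples. Pearson's r of log2 CPM between pairs of members ranged from -0.91 (Clec4e with Clec4n) to 0.95 (Clec4a1 with Clec4a3), with a median of -0.16 over 36 pairs, of which 15 were positive. Clec4a3 had r = 0.88 with Clec4n and 0.81 with Clec4a2, and Clec4e had r = 0.83 with Clec5a and 0.72 with Clec4d. The points share the difference between tissues and the same libraries. Over the 6 BM samples alone, r was 0.51 for Clec4a1 with Clec4a3, -0.26 for Clec4e with Clec5a and 0.52 for Clec4e with Clec4d, with a median of -0.02 over all pairs.

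The genes whose log2 CPM followed each member most closely over the 9 samples, by Pearson's r and at most 2 for each, were Pilrb2 (0.993) and Cntrl (0.992) for Clec4a1, Tlr1 (0.982) and Kynu (0.98) for Clec4a2, and Map3k8 (0.987) and Evi2a (0.987) for Clec4a3. For Clec4n they were Sytl3 (0.998) and Prf1 (0.998), for Clec4d Car3 (0.972) and Pex14 (0.96), and for Clec4e Cd34 (0.975). Those of Clec5a were Gm12359 (0.977) and Idh2 (0.976), those of Ly75 Arhgap22 (0.969) and Dcun1d4 (0.962), and those of Mrc1 Ypel1 (0.978) and Slc35e3 (0.974). Prf1, the gene of perforin, is a gene of NK and T cells. Over the 6 BM samples the values of the genes named here ranged from 0.559 (Clec5a with Idh2) to 0.964 (Clec4a2 with Kynu), leaving out Clec4n, which has counts in 1 BM sample only.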

How the data were processed

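Bulk RNA-seq of sorted pre-cDCs was analysed in 9 samples, grouped by the tissue and genotype in their labels, with the number in each label as the replicate. The authors deposited expected counts of 51912 genes, not normalized, and log2 values of 20810 genes after variance stabilization (VST, with a floor of 8.43). Submitters' processing notes name Trimmomatic 0.36, STAR 2.5.2, RSEM 1.3.0 and DESeq2 1.18.1 with GRCm38, while the annotation release is not given in the sources used here. Of the nonzero expected counts 25.6% were not whole, and all were rounded before testing. Reads shared between similar or overlapping genes could have been divided by RSEM. Symbols and exon lengths came from GENCODE M21.

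Counts were normalized by TMM and tested in R 4.3.3 with edgeR 4.0.16 (filterByExpr, quasi-likelihood test, Benjamini-Hochberg adjustment over all genes tested, threshold 0.05). The SE was taken from the F statistic. BM genotypes were compared over 6 samples, and tissues over 9 with genotype as a covariate. WT spleen had 1 sample, so spleen genotypes were set side by side. CPM values are TMM-normalized, the log2 scale has a prior count of 2, and 3 counts correspond to 0.127 to 0.179 CPM. DESeq2 1.42.0, limma 3.58.1 (voom, and on the VST values), other filters and scalings, a replicate block, a score of chromosome 1 congenic genes as a covariate, each sample left out in turn and, chosen after seeing the data, leaving out the 2 BM samples highest in neutrophil genes were alternatives. Replicates differed by far more than sampling noise (chi-square per gene 28.9 to 257), so each was counted as 1 sample.

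The members and lists were chosen with earlier results of these data known. Named genes were the 9 members, Clec9a, Clec7a, 4 signalling partners, list genes passing in BM or otherwise at most 4 per list with the lowest adjusted p between tissues, and for each member the 2 most correlated genes, of which 1 is not reported here. Other names are marked in the text as chosen after their values were seen. Exact intervals are Clopper-Pearson at 95% and cover counting error only.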

Additional observations from a re-analysis of the deposited data

Results flagged for a closer look

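Clec4a3 went in opposite directions between genotypes in the 2 tissues. In BM every DNGR-1 KO sample was above every WT sample (log2 fold change 1.16), and in spleen both DNGR-1 KO samples were below the WT sample (log2 difference -1.73). The difference between tissues was not tested, since WT spleen had 1 sample, and the BM value did not pass the adjusted threshold. No member had a BM sample whose distance from the other samples passed Dixon's 95% critical value, among the 8 members with more than 3 counts in a BM sample.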

How the results depend on the processing

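In BM 4 genes were called between genotypes, and 11 by DESeq2, 10 with no filter, 8 without the 2 BM samples highest in neutrophil genes, and 2 to 15 with each sample left out. None of these alternatives called a member. Signs turned for Clec4e, from a log2 fold change of 0.26 to -0.16 by limma-voom, -0.15 with the replicate block and -0.88 without those 2 samples. With each sample left out the range was -0.64 (without DNGR-1 KO BM sample 1) to 0.74 for Clec4e, -0.01 (without DNGR-1 KO BM sample 3) to 0.64 for Clec4a2, and -2.15 to 0.05 (without WT BM sample 1) for Clec4d. The cause was not tested.

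Between tissues 2631 genes and 5 members were called, and 1336 genes and 2 members over DNGR-1 KO samples alone (Clec4a3 and Clec4n), where fewer samples enter, 1609 genes and 4 members without the 2 BM samples named above, and 3 members, the only ones tested, with at least 10 counts in every sample. Ly75 turned to -0.70 by limma-voom and ranged from -0.52 (without DNGR-1 KO spleen sample 1) to 1.74 with each sample left out. With each sample left out, 1848 to 3187 genes and 5 to 7 members were called, the 7 without WT spleen, where Mrc1 and Clec4d were added.

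Same-numbered WT and DNGR-1 KO BM samples deviated together with r = 0.103, 0.0989 and -0.0815 over the genes tested. Single genes went either way. S100a9 followed the number, with 141.9, 11.5 and 40.3 CPM in WT and 127.7, 13.1 and 43.4 CPM in DNGR-1 KO BM. Kit, named after its values were seen, did not (50.6, 137.6 and 132.1 against 140.4, 56.0 and 69.0 CPM). The sources do not say which samples shared mice, so pairing could not be settled, and the main tests treated samples as separate. With the replicate block 4 genes were called in BM and 1246 between tissues, with 3 members (Clec4a1, Clec4a3 and Clec4n) and without Clec4e (log2 fold change -5.70, adjusted p = 0.0972) and Clec5a (-6.16, adjusted p = 0.0795). In spleen, differences between genotypes on the VST scale were smaller, such as -0.83 for Clec4d and 1.24 for Mrc1, in place of -6.04 and 6.90 on the log2 CPM scale.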
